A study of Mus musculus with 6 samples.

Results

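Collagen chain genes were examined in primary mouse embryonic fibroblasts (MEFs) that carry a floxed Kansl1 gene, with or without a Cre recombinase. The product of Kansl1 belongs to the NSL complex, a modifier of chromatin. Genes with a collagen chain symbol (Col, a number, a and a number) were taken when their mean over the 6 samples was at least 1 TPM (a read count corrected for gene length and for the total of the sample). This gave 29 of the 44 collagen genes in a table of 26898 genes, and the level over both groups together was the measure used to choose them. They comprised 11 fibrillar, 6 basement membrane and 12 other chains.

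RNA sequencing was carried out on 3 WT samples (WT 4, 5 and 8, genotype Kansl1 fl/fl) and 3 KO samples (KO 3, 7 and 10, genotype Kansl1 fl/fl/CAG-cre). MEFs of strain C57BL/6 came from mid-gestation embryos, were at passage 3, and in both groups had received 1 μM tamoxifen for 48 h, which switches on the Cre recombinase of the KO cells. CAG is a broadly active promoter, so Cre was not limited to 1 cell type, and no cells with Cre and intact Kansl1 were analysed here, so that Cre and the change in Kansl1 cannot be told apart. The study's methods give 3 biological replicates a group without saying whether embryos shared a litter.

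Collagens are trimers of chains that wind into a triple helix in the endoplasmic reticulum, are secreted as procollagens and assemble outside the cell. Fibrillar collagens form the banded fibrils of connective tissue, collagen IV forms the network of basement membranes, and the remaining families coat fibrils, anchor them or build filaments and lattices. Fibroblasts are a main source of types I, III, V and VI, and some trimers, such as those of type I, need partner chains from separate genes in fixed proportion.

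Kansl1 (ENSMUSG00000018412.16, chromosome 11 from 104333229 to 104468861, minus strand) was lower in the 3 KO samples (13.7 to 15.8 TPM) than in the 3 WT samples (24.4 to 28.5 TPM), with a limma adjusted p of 0.000859 (log2 fold change -0.82, SE 0.11). The ratio of the KO to the WT mean was 0.551, so Kansl1 RNA was reduced and not absent, and values per gene do not separate the floxed exons from the rest. Reads assigned to genes, recovered from the TPM values, numbered between 17655495 (KO 3) and 27718259 (KO 7). A single short RNA, Gm23935, took 15.5% to 25.6% of TPM. Of 7 fibroblast markers tested, 0 were called at the thresholds given below, against 10.7% of all tested genes. With 7 genes this count is no test of cell identity. Vim stood at 2228 to 2522 TPM. Xist was at 117 TPM in KO 7 and at most 0.02 TPM in the other samples, and the 4 Y-linked genes measured were at 0 in KO 7, so that this sample differed in sex from the rest.

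The study's thresholds, which it set on DESeq2 values, were applied here to limma: an adjusted p below 0.005 and a log2 fold change beyond 0.5 in size. With these, 0 of the 29 collagen genes were called in KO MEFs in either direction, against 10.7% of the 14799 genes tested (1.64% called higher and 9.03% called lower). Adding 1 TPM before taking log2 makes the fold change of genes with low levels smaller than that of their TPM. An unadjusted limma p below 0.05 was reached by 5 collagen genes, against 39.4% of all tested genes. Of these, Col20a1, Col18a1, Col8a2 and Col7a1 had higher means in KO and Col28a1 had a lower mean. Col20a1 reached the limit of 1 TPM through its KO samples alone (means of 0.518 TPM in WT and 1.82 TPM in KO), so that its difference is tied to its selection and is given as a description in the counts here and below. At an adjusted p below 0.05 with the same fold limit, the count was 4 higher and 0 lower collagen genes, where 21.3% of all tested genes were called (4.69% higher and 16.6% lower). That count rested on single samples. It was 4 without WT 5, 3 without WT 4 (Col20a1 with Col2a1 and Col10a1 in place of the others), 3 without KO 3, 1 without WT 8 or KO 7 (Col20a1) and 0 without KO 10. It also has to be read against the scaling. At an adjusted p below 0.05 and any fold, 13.8% of the collagen genes and 7.14% of all tested genes were higher in KO. These shares were 13.8% and 18.8% under median-of-ratios scaling and 17.2% and 20.4% by voom. The shares lower in KO were 0% and 20.7% in the main fit and 0% and 24.0% under median-of-ratios scaling. By voom they were 3.45% (Col28a1, voom adjusted p 0.038) and 25.3%. The voom method on recovered reads called 1 collagen gene, Col20a1, whose place among the members rests on its KO level, whereas it called 16.7% of all tested genes and 4.05% higher. When genes had to reach a mean of 10 TPM, limma called Col7a1 and Col18a1 higher, against 3.73% of the genes of that level. The values and estimates of these 2 genes were the same as in the main fit, and only the genes fitted with them differed.

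Of the 29 log2 fold changes, 18 were positive and 11 negative, with a median of 0.07, beside a median of -0.07 over all tested genes. The class medians were 0.16 for fibrillar, 0.01 for basement membrane and 0.08 for other chains. Each was smaller than the SD with which the median level of that class moved between samples of the same group (0.36, 0.15 and 0.30 on the log2 scale). The signs of these medians were not stable. The overall median was -0.08 without WT 4 and -0.08 without KO 7, and 0.31 without KO 3. With 1 sample left out, the class medians ran from -0.15 to 0.35 (fibrillar), -0.10 to 0.10 (basement membrane) and -0.12 to 0.36 (other). The highest value of the other class, without KO 3, was beyond its SD of 0.30. The 95% confidence interval of the fold change lay within 1 log2 unit of 0 for 23 of the 29 genes and within 0.5 for 6, so that for the other 23 genes the interval includes differences beyond 0.5. In 25 genes the WT and KO samples overlapped. The 3 KO samples lay above the 3 WT samples in Col20a1, Col8a2 and Col7a1 and below them in Col28a1, which is 4 of 29 genes with Col20a1 counted, whereas 43.2% of all tested genes had groups that did not overlap (13.3% with KO above and 29.9% with KO below WT).

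**Figure D1:**
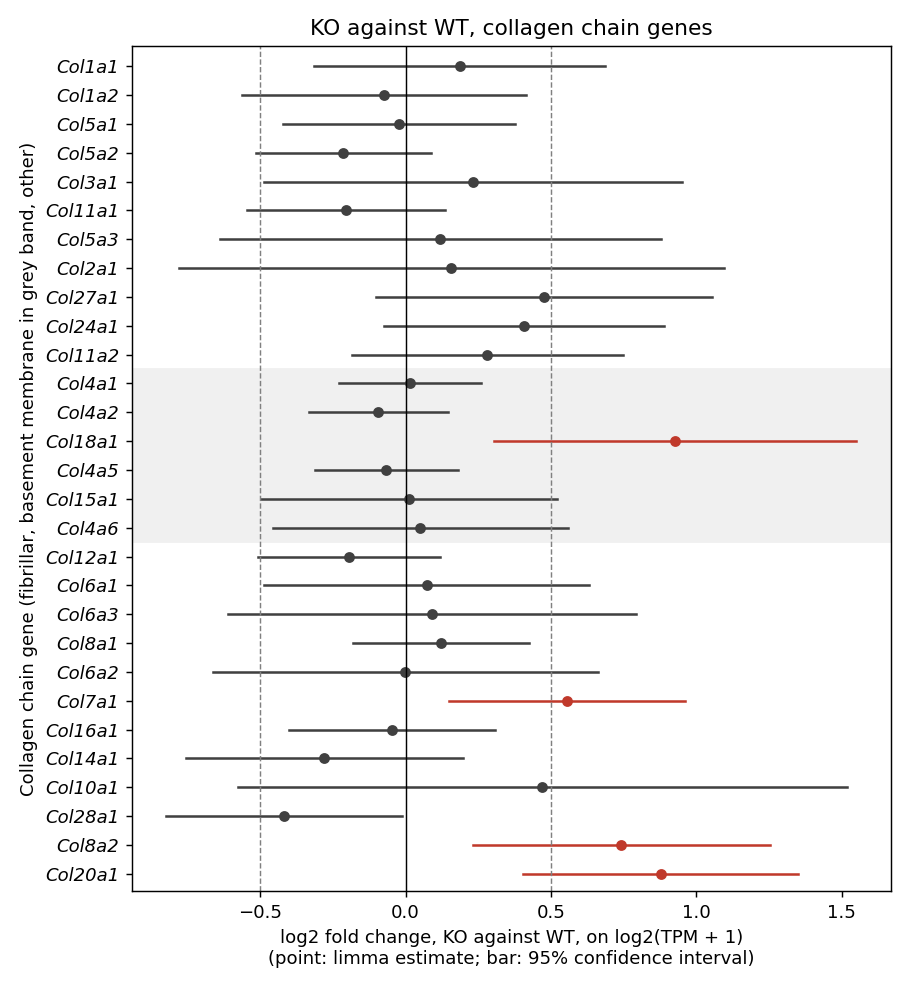
Log2 fold change of KO against WT MEFs for the 29 collagen chain genes on the log2(TPM + 1) scale, ordered by class and by mean level, with points for the limma estimate and bars for its 95% confidence interval (3 samples a group). Dashed lines mark the fold limit of 0.5 in size and red marks the 4 genes with an adjusted p below 0.05; the basement membrane chains lie in the grey band, and the bars of most genes cross 0.

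The stretches before the annotated starts of the genes with an unadjusted p below 0.05 are given to show the promoter side of these genes. They were chosen after the values were seen. Windows of 250 bases before RefSeq starts were found for 24 of the 29 genes (26 windows), on build mm10. Annotated exon bases were removed from the printed sequences only, so the motif counts and GC contents are those of whole windows. Letters of 3 known promoter motifs were searched on both strands. The GC box, spelled GGGCGG, was in 16 of 26 collagen windows and in 32.7% of the 32851 windows of all genes treated alike. The CCAAT box, searched by those 5 letters, was in 9 of 26 collagen windows and in 33.8% of all. The TATA box, searched as TATAAA, was in 3 of 26 collagen windows and in 12.4% of all. The collagen windows had a median GC content of 58.6%, against 52.4% over all windows. Capitals mark the GC box and the CCAAT box on either strand, and the sequences read 5′ to 3′ along the gene. The window of Col20a1 lies in an annotated exon and is not shown, and the window of Col18a1 is that of the outermost of its 2 starts.
Col18a1, chr10:77166549-77166780 (- strand): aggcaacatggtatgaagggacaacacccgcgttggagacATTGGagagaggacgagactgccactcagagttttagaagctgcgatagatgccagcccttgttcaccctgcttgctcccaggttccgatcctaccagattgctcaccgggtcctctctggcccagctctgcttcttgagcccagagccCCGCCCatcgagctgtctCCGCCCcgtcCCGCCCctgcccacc
Col7a1, chr9:108953336-108953585 (+ strand): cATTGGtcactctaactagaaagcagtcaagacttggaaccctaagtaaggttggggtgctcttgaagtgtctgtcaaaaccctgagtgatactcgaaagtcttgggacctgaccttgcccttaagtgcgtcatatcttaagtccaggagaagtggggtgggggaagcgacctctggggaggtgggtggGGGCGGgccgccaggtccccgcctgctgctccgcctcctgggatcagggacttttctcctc
Col8a2, chr4:126286544-126286792 (+ strand): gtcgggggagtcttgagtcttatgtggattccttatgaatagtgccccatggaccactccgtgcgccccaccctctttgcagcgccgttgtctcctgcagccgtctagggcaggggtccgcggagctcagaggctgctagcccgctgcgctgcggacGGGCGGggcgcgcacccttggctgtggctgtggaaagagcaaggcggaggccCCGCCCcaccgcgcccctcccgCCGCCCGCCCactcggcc
Col28a1, chr6:8192618-8192867 (- strand): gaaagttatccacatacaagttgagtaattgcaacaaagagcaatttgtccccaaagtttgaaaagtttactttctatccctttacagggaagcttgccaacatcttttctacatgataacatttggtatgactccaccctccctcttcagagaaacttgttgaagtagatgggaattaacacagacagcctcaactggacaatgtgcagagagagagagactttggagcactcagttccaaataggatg
The windows of Col18a1, Col7a1 and Col8a2 held the GC box, and that of Col28a1 held none of the 3 motifs, which says no more than that these letters are not there. A match is a description of the letters and not a bound site.

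Levels differed widely among the collagen genes. The mean over the 6 samples ran from 1.17 TPM for Col20a1 to 4867 TPM for Col1a1. It was at least 1000 TPM in 2 genes, at least 100 TPM in 11 and at least 10 TPM in 19. Summed over the 29 genes, the WT samples 4, 5 and 8 had 7639, 12392 and 10629 TPM, and the KO samples 3, 7 and 10 had 8626, 12049 and 11112 TPM. The lowest sum in each group belonged to WT 4 and KO 3, and the groups overlapped. Fibrillar chains made up 72.0% to 78.3% of that sum in WT and 76.4% to 77.4% in KO, and basement membrane chains 11.9% to 16.1% and 11.7% to 14.4%. Here as below, bulk RNA cannot tell fewer cells with a transcript from less RNA per cell.

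**Figure D2:**
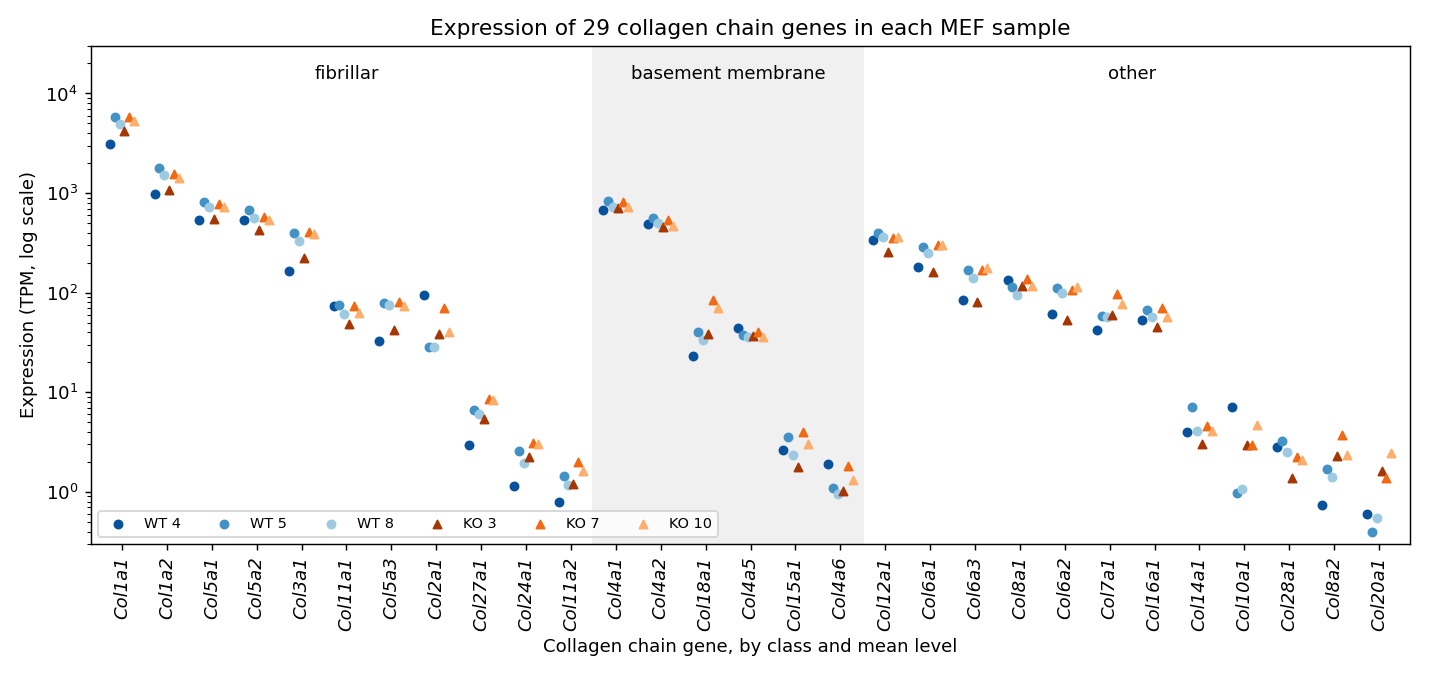
Expression in TPM (log scale) of the 29 collagen chain genes, with 1 point for each of the 6 samples, blue circles for WT and orange triangles for KO, grouped by class. Col1a1 and Col1a2 lie above the other chains, and the KO and WT points overlap for 25 of the 29 genes.

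Among the fibrillar chains, the type I genes had the highest levels. Col1a1 (ENSMUSG00000001506.10, chromosome 11 from 94936224 to 94953042, plus strand), which encodes the alpha 1 chain of the main collagen of skin, bone and tendon, stood at 3080.0, 5805 and 4958 TPM in WT, against 4195, 5809 and 5352 TPM in KO. WT 4 was the lowest of the 6 samples, and KO 7 was level with WT 5. KO was higher by 0.19 on the log2 scale (SE 0.22, limma adjusted p 0.568), and the estimate was -0.08 without WT 4. Col1a2 (ENSMUSG00000029661.16, chromosome 6 from 4504814 to 4541544, plus strand), its partner chain, stood at 979.7, 1806 and 1514 TPM in WT, against 1062, 1538 and 1406 TPM in KO. The KO samples lay inside the WT range, and the log2 fold change was -0.07 (SE 0.22, limma adjusted p 0.832). It turned to 0.01 under median-of-ratios scaling. Together the type I chains held 73.8% to 79.8% of fibrillar TPM.

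Col5a1 and Col5a2 encode type V chains, which enter type I fibrils and limit their width. Col5a1 (ENSMUSG00000026837.15, chromosome 2 from 27886425 to 28039514, plus strand) stood at 533, 823 and 723 TPM in WT, against 545, 771 and 719.7 TPM in KO, a log2 fold change of -0.02 (SE 0.18). Its KO samples lay inside the WT range, and the sign turned under median-of-ratios scaling (0.07). Col5a2 had means of 590.5 ± 69.2 TPM (SD, n = 3) in WT and 511 ± 75.5 TPM (SD, n = 3) in KO, with a log2 fold change of -0.21 (SE 0.13). Col5a3, the third type V chain, ranged from 32.6 to 79.7 TPM in WT and from 41.8 to 80.8 TPM in KO. Col3a1, of the type III collagen that accompanies type I in extensible tissues, ranged from 164 to 400.5 TPM in WT and from 225 to 402 TPM in KO. In both genes the lowest WT value was that of WT 4 and the lowest KO value that of KO 3.

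Chains best known from cartilage were also present. Col2a1 (ENSMUSG00000022483.17, chromosome 15 from 97975602 to 98004695, minus strand), the chain of cartilage fibrils, stood at 95.3, 28.7 and 28.8 TPM in WT, against 38.9, 71.0 and 40.2 TPM in KO. WT 4 was far above the other WT samples, against its low place in most fibrillar chains, and KO 7 was the highest KO sample. With all samples the log2 fold change was 0.16 (SE 0.42). It was 0.72 without WT 4 (limma adjusted p 0.0444), and negative when WT 5, WT 8 or KO 7 was left out (-0.13, -0.12 and -0.12). Col11a1, a chain that joins type II fibrils, ranged from 61.6 to 76.0 TPM in WT and from 48.5 to 73.1 TPM in KO, whereas its partner Col11a2 was at 0.790 to 1.46 TPM and 1.20 to 1.98 TPM. The minor fibrillar chains Col27a1 and Col24a1 had means of 5.24 ± 2.00 and 1.90 ± 0.722 TPM (SD, n = 3) in WT and 7.47 ± 1.77 and 2.79 ± 0.461 TPM (SD, n = 3) in KO. With all samples, their log2 fold changes of 0.48 (SE 0.26) and 0.41 (SE 0.21) were the highest of the fibrillar class. They had limma adjusted p-values of 0.202 and 0.191. Without WT 4 they fell to 0.18 and 0.21 (limma adjusted p 0.531 and 0.467), below the 0.72 of Col2a1. Over the 11 fibrillar chains, 7 fold changes were positive and 4 negative, from -0.21 to 0.48. An unadjusted limma p below 0.05 was reached by 0 of them, against 39.4% of all tested genes.

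The basement membrane chains Col4a1 and Col4a2 form the common collagen IV trimer, and their genes lie head to head. Col4a1 (ENSMUSG00000031502.11, chromosome 8 from 11198423 to 11312826, minus strand) stood at 671, 826 and 725 TPM in WT, against 716, 804 and 717 TPM in KO. Its fold change on the log2 scale was 0.01 (SE 0.11), and the 95% confidence interval ran from -0.23 to 0.26. Col4a2 (ENSMUSG00000031503.13, chromosome 8 from 11312805 to 11449287, plus strand) stood at 489, 567 and 495 TPM in WT, against 452, 533 and 469 TPM in KO, with a log2 fold change of -0.09 (SE 0.11) and an interval from -0.33 to 0.15. These were among the narrowest intervals of the set, and in both genes the KO and WT samples overlapped. The exons of the pair overlap by 22 bp on opposite strands, and whether counting used strand was not stated. Col4a5 and Col4a6, a second head-to-head pair on the X chromosome, had means of 39.3 ± 4.16 and 1.32 ± 0.524 TPM (SD, n = 3) in WT and 37.4 ± 2.32 and 1.39 ± 0.408 TPM (SD, n = 3) in KO, where KO 7, the sample of the other sex, had the highest KO value of both (40.0 and 1.83 TPM), as it had in 24 of the 29 collagen genes and in 68.6% of all tested genes. Over the 4 collagen IV chains the median log2 fold change was -0.03. Col15a1, of a basement membrane proteoglycan, ranged from 2.33 to 3.52 TPM in WT and from 1.80 to 3.95 TPM in KO.

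Col18a1 (ENSMUSG00000001435.15, chromosome 10 from 77052178 to 77166548, minus strand) differed from the other basement membrane chains in its estimate. It encodes the proteoglycan from whose end the fragment endostatin is released. Its level was 23.4, 40.7 and 33.7 TPM in WT, against 38.6, 84.6 and 70.3 TPM in KO. KO 7 and KO 10 lay above the WT samples, whereas KO 3 lay below WT 5. The log2 fold change of 0.93 (SE 0.28, limma adjusted p 0.0338) missed the threshold of 0.005. With 1 TPM added it was the highest of the 29, whereas by voom on the recovered reads its 1.05 was below the 1.84 of Col20a1 and the 1.27 of Col8a2. Over the alternatives its adjusted p ran from 2.15e-05 to 0.115, the lowest among genes of at least 10 TPM, and its fold change lay between 0.70 and 1.25. At that lowest value its estimate was still 0.93, so the lower p reflects the genes fitted with it and not a smaller spread of its own samples. The test of its difference from the other chains was not made.

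Among the other chains, Col12a1 had the highest level. It encodes a fibril-associated collagen that links type I fibrils to the surrounding matrix. Col12a1 (ENSMUSG00000032332.17, chromosome 9 from 79598991 to 79718831, minus strand) stood at 337, 398 and 363 TPM in WT, against 257, 353 and 358 TPM in KO, with KO 3 alone below the WT samples and a log2 fold change of -0.19 (SE 0.14). Col14a1 and Col16a1, of the same family, had log2 fold changes of -0.28 (SE 0.21) and -0.05 (SE 0.16), and the latter was 0.04 under median-of-ratios scaling. With 1 sample left out, the estimate for Col14a1 ran from -0.40 to -0.05.

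The 3 type VI chains, which build beaded filaments around cells, varied together between samples. Col6a1 (ENSMUSG00000001119.7, chromosome 10 from 76708792 to 76726168, minus strand) stood at 180.1, 286 and 249 TPM in WT, against 161, 304 and 304 TPM in KO. Col6a3 (ENSMUSG00000048126.16, chromosome 1 from 90765923 to 90843971, minus strand) stood at 84.9, 168 and 140.0 TPM in WT, against 81.2, 168 and 177 TPM in KO. Col6a2 ranged from 60.5 to 110.4 TPM in WT and from 53.7 to 114 TPM in KO. WT 4 and KO 3 were the low sample of their group in each of the 3 genes, and the log2 fold changes of 0.07 (SE 0.25), 0.09 (SE 0.31) and, for Col6a2, -0.001 (SE 0.29) were smaller than their errors.

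Col7a1 (ENSMUSG00000025650.13, chromosome 9 from 108953586 to 108984875, plus strand) encodes the chain of the anchoring fibrils that tie the epidermis to the dermis. Its level was 42.0, 58.1 and 57.1 TPM in WT, against 60.2, 96.3 and 77.7 TPM in KO. The lowest KO sample, KO 3, lay just above the highest WT sample, WT 5. The log2 fold change was 0.55 (SE 0.18, limma adjusted p 0.0462, higher in 3 of 3 KO samples) and ran from 0.39 without KO 7 (adjusted p 0.143) to 0.73 without KO 3 (0.0205). An exon of Col7a1 holds the miRNA gene Mir711 over 36 bp.

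Col8a1 and Col8a2 encode the type VIII chains, which form a hexagonal lattice in the basement layer of the cornea and around vessels. Col8a1 (ENSMUSG00000068196.5, chromosome 16 from 57624258 to 57754737, minus strand) ranged from 94.0 to 133 TPM in WT and from 115 to 136 TPM in KO, with a log2 fold change of 0.12 (SE 0.13). Col8a2 (ENSMUSG00000056174.8, chromosome 4 from 126286793 to 126314330, plus strand) was far lower, at 0.742, 1.70 and 1.41 TPM in WT, against 2.30, 3.77 and 2.37 TPM in KO. The 3 KO samples lay above the 3 WT samples, on 75 to 164 reads in KO and 27 to 67 reads in WT. On the log2 scale KO was higher by 0.74 (SE 0.23, limma adjusted p 0.0369), and over the alternatives the adjusted p ran from 0.00958 by voom to 0.127 without KO 7. Col10a1, the short chain of hypertrophic cartilage, stood at 7.06, 0.984 and 1.08 TPM in WT, against 2.94, 2.97 and 4.65 TPM in KO. WT 4 was the highest of the 6 samples, as in Col2a1, and the other WT samples were the lowest. With all samples the log2 fold change was 0.47 (SE 0.47), and it was 1.13 without WT 4 (limma adjusted p 0.0055), 0.12 without WT 5 (0.872), 0.16 without WT 8 (0.845) and 0.30 without KO 10 (0.714).

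Col20a1 (ENSMUSG00000016356.18, chromosome 2 from 180986535 to 181018363, plus strand), a fibril-associated collagen, was the member nearest the limit of 1 TPM. Its level was 0.600, 0.399 and 0.554 TPM in WT, against 1.63, 1.38 and 2.44 TPM in KO, on 18 to 27 and 61 to 112 reads. The 3 WT samples lay below 1 TPM and the 3 KO samples above it, so that the gene is a member only through KO and the separation is no independent result. The values that follow are therefore a description. The estimate was 0.88 on the log2 scale (SE 0.21, limma adjusted p 0.0133). On the recovered reads, where no pseudocount of 1 TPM compresses low values, it was 1.84 by voom (adjusted p 0.00242). Its exons share 79 bp with BX649560.1 on the same strand, so reads there cannot be assigned to 1 gene. Col28a1 (ENSMUSG00000068794.7, chromosome 6 from 7997808 to 8192617, minus strand), known from peripheral nerve, stood at 2.79, 3.26 and 2.54 TPM in WT, against 1.37, 2.25 and 2.10 TPM in KO. The KO samples lay below the WT samples, with a log2 fold change of -0.42 (SE 0.18), an unadjusted limma p of 0.044 and an adjusted p of 0.115. By voom the log2 fold change was -0.49 (adjusted p 0.038).

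The limit of 1 TPM fell between Col20a1, Col4a6 and Col11a2 just inside, with means of 1.17, 1.35 and 1.37 TPM, and Col9a3 just outside, with a mean of 0.973 TPM. The other 14 collagen genes below the limit were lower still, and chains such as Col4a3, Col4a4 and Col17a1 stayed at or below 0.311 TPM in each sample.

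In each group the same sample was low in many chains. WT 4 was the lowest WT sample in 20 of the 29 collagen genes, whereas it was the lowest in 25.1% of all tested genes. KO 3 was the lowest KO sample in 26 of 29, against 76.2% of all tested genes. Both held at once in 20 collagen genes (69.0%) and in 19.0% of all tested genes. The fibrillar class showed it in 9 of 11 genes, the exceptions being Col2a1 and Col11a1, and the basement membrane class in 3 of 6. In Col5a3, for example, WT 4 lay 1.22 log2 units below the mean of WT 5 and WT 8, and KO 3 lay 0.88 below the mean of KO 7 and KO 10. KO 3 had the fewest reads of the 6 samples and WT 4 the fewest of the WT group (22812595), whereas the Gm23935 share was 25.6% in KO 3, the highest of the samples, and 15.5% in WT 4. The part of depth in this pattern was not tested. Without both samples, a setting chosen after the data were seen, 3 collagen genes were called higher by limma (Col7a1, Col18a1 and Col10a1), where 3.38% of all tested genes were, and 0 were called lower.

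**Figure D3:**
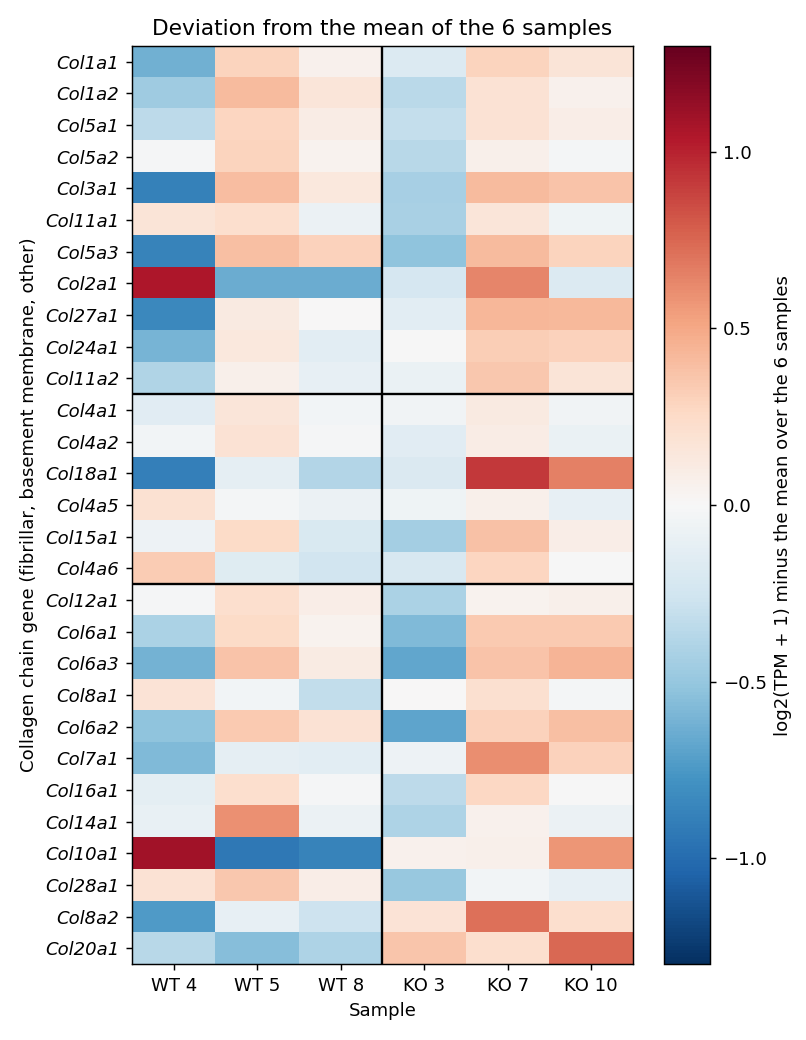
Deviation of each of the 29 collagen chain genes in each of the 6 samples from its mean over the samples, in log2(TPM + 1), with red above and blue below the mean and black lines between classes and groups. The columns of WT 4 and KO 3 are blue in most rows, and WT 4 is red in Col2a1 and Col10a1.

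Ratios of partner chains were compared within samples, where a scaling shared by both chains drops out. TPM is divided by the merged exon length of each gene (6563 bp for Col1a1 and 12426 bp for Col1a2). The ratios can therefore be compared between the groups, but their absolute size is not a proportion of transcripts or chains. The ratio of Col1a1 to Col1a2, whose chains enter type I trimers at a fixed proportion, was 3.14, 3.21 and 3.27 in WT and 3.95, 3.78 and 3.81 in KO. Its mean was 3.21 ± 0.0652 (SD, n = 3) in WT and 3.84 ± 0.0931 (SD, n = 3) in KO, and WT 4 and KO 3, low in both chains, lay near the other samples of their groups. The ratio of Col4a1 to Col4a2 was 1.37, 1.46 and 1.46 in WT and 1.59, 1.51 and 1.53 in KO, again higher in the 3 KO samples. The ratio of Col8a1 to Col8a2 was 179, 67.4 and 66.7 in WT and 51.3, 36.2 and 48.7 in KO. The ratio of Col11a1 to Col11a2 was 92.8, 52.0 and 52.2 in WT and 40.5, 36.9 and 38.6 in KO. Both were lower in the 3 KO samples, with WT 4 far above the rest, and both rest on a partner of low level. The groups overlapped for Col5a1 to Col5a2, Col6a1 to Col6a2, Col6a3 to Col6a2 and Col4a5 to Col4a6. The groups were thus apart in 4 of 8 ratios. For single genes that share was 43.2%, which includes the scaling between samples that a ratio drops, and no share over other ratios was computed. An exact two-sided permutation test of 3 against 3 samples gave p = 0.1 for each of the 4, the smallest it can give, and 0.2 after Benjamini-Hochberg adjustment over the 8.

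**Figure D4:**
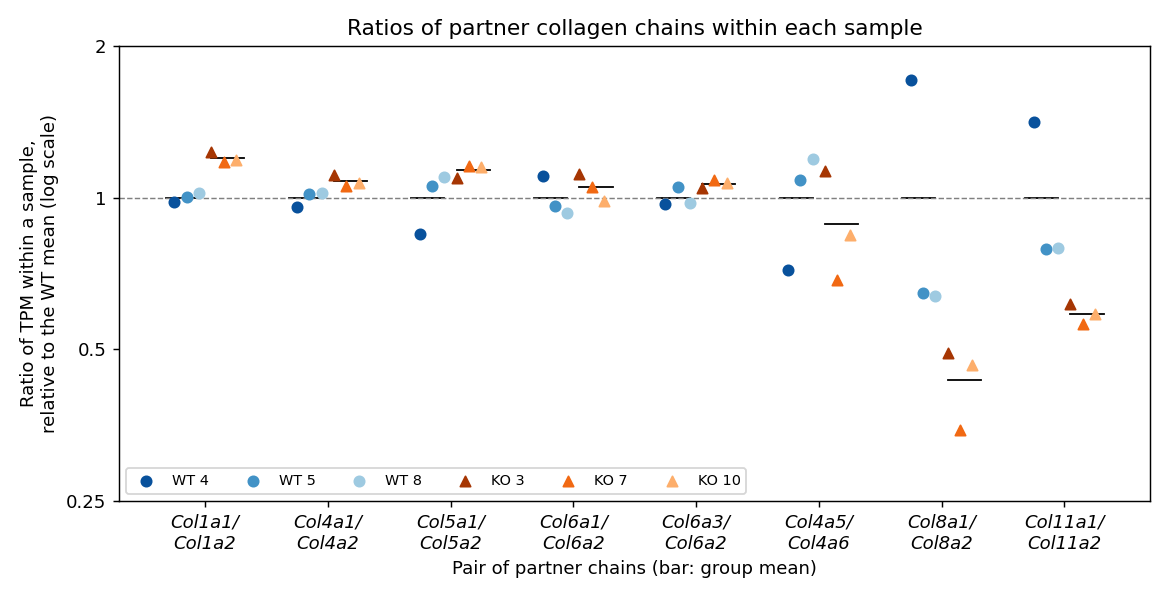
Ratio of the TPM of partner collagen chains within each of the 6 samples, divided by the WT mean of that ratio (log scale), with blue circles for WT, orange triangles for KO and a bar for each group mean. The KO points lie above the WT points for Col1a1 to Col1a2 and Col4a1 to Col4a2 and below them for Col8a1 to Col8a2 and Col11a1 to Col11a2.

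Genes of collagen processing, binding and regulation were taken from a list of 53, of which 51 were tested. Of these 0 were called higher and 1 was called lower, against 1.64% and 9.03% of all tested genes. The latter was Tmem38b, whose product is an endoplasmic reticulum cation channel needed for normal type I procollagen processing. Tmem38b stood at 6.13, 6.02 and 6.26 TPM in WT, against 2.46, 3.66 and 2.94 TPM in KO, and the groups were well apart. KO was below WT by a log2 fold change of -0.84 (SE 0.15, limma adjusted p 0.00305), and the adjusted p was above 0.005 when WT 4, WT 5, WT 8, KO 3 or KO 10 was left out (at most 0.0128), and was 0.018 with no filter on low values. An adjusted limma p below 0.05 was reached by 5 genes, each with a lower mean in KO: Tmem38b, the cross-linking oxidases Loxl3 and Loxl4, Pepd, which recycles proline from collagen fragments, and the matrix regulator Ccn2. Pepd had means of 23.0 and 18.1 TPM in WT and KO (limma adjusted p 0.0376) and Ccn2 had 1326 and 962 TPM (0.0452). With 1 sample left out, the limma adjusted p ran from 0.048 to 0.148 for Pepd and from 0.022 to 0.12 for Ccn2. Pepd then stayed below 0.05 only without KO 7, and Ccn2 only without WT 8. Higher means at that limit were thus found in 0 and lower means in 5 of the 51 genes, against 7.14% and 20.7% of all tested genes. This split turned with the scaling. Under median-of-ratios scaling 11 genes were higher and 6 lower, without Ccn2 (adjusted p 0.0683), against 18.8% and 24.0% of all tested genes. By voom 16 were higher and 7 lower, against 20.4% and 25.3%. At the calling thresholds voom gave 1 higher gene (Itga2, log2 fold change 0.88, voom adjusted p 0.00269) and 1 lower. Among all tested genes voom called 16.7%, and 4.05% higher. The median log2 fold change over the list was -0.002, and 0.09 under both of these alternatives. In the main fit the highest of the list was that of Lum (0.89, SE 0.32, limma adjusted p 0.07). Its means were 3.52 TPM in WT and 7.12 TPM in KO, and its groups overlapped.

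Beside Pepd and Ccn2, the genes of highest level in each role of the list had the following means. Serpinh1, the collagen chaperone HSP47, had 2094 TPM in WT and 2047 TPM in KO, and P4hb, the beta subunit of prolyl 4-hydroxylase, 1136 and 1333 TPM. Colgalt1, which adds galactose to hydroxylysine, had 130.8 and 157.4 TPM, and Pcolce, which enhances propeptide removal, 226 and 276 TPM. Lox, which starts cross-linking, had 1226 and 1165 TPM. Itgb1, the shared subunit of the collagen-binding integrins, had 2318 and 1861 TPM, and Sparc, a collagen-binding matrix protein, 2356 and 2667 TPM. The limma adjusted p-values of these 7 genes lay above 0.05, with 0.0512 for Itgb1 and 0.0534 for Pcolce the lowest. Under median-of-ratios scaling 5 of the 7 passed 0.05, where 18.8% of all tested genes were higher and 24.0% lower at that limit. Pcolce (limma adjusted p 0.00272), P4hb (0.00563), Colgalt1 (0.0291) and Sparc (0.0401) were higher in KO, and Itgb1 (0.0158) was lower, with log2 fold changes between -0.23 and 0.38 and 0 called at the fold limit of 0.5. The same 5 passed 0.05 by voom, where 20.4% of all tested genes were higher and 25.3% lower. These 7 genes were taken for their high level, and the shares are over genes of all levels.

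Markers of other cell types were read beside these values. The 8 macrophage markers summed to 14.1 to 23.1 TPM in WT and 32.2 to 59.8 TPM in KO. Of the 6 tested, 6 lay higher in the 3 KO samples, against 13.3% of all tested genes, and 1 (C1qc) was called. Leaving aside Adgre1, which passed the filter through KO alone, the limma adjusted p ran from 0.00251 (C1qc) to 0.0229 (Csf1r). Among all tested genes, 7.14% were higher in KO at an adjusted p below 0.05. Ptprc, in contrast, was at most 0.257 TPM. The 6 smooth muscle and pericyte markers summed to 5668 to 6410 TPM in WT and 4244 to 4976 TPM in KO, nearly all of it Acta2. Myh11 was called lower (25.5 TPM in WT and 11.5 TPM in KO), and the means of Acta2, Cnn1 and Tagln were also lower in KO (limma adjusted p 0.0218, 0.0481 and 0.0991). The means of Cspg4 (46.7 TPM in WT and 60.8 TPM in KO, limma adjusted p 0.0835) and Rgs5 (7.05 and 9.34 TPM, 0.386) were higher. Under median-of-ratios scaling Cspg4 passed 0.05 (limma adjusted p 0.00581) and Cnn1 did not (0.106). The same held by voom (adjusted p 0.0015 and 0.0638). The 7 chondrocyte markers summed to 21.5 to 25.7 TPM in WT and 27.8 to 33.9 TPM in KO, mostly Sox9. WT 4, the sample high in Col2a1 and Col10a1, was close to the other WT samples in Acan (4.53, 4.03 and 4.09 TPM in WT 4, 5 and 8) and between them in Sox9 (17.4, 19.6 and 15.8 TPM). It was the highest WT sample in Matn3 (1.97, 1.66 and 1.19 TPM), Hapln1 (0.460, 0.193 and 0.143 TPM), Comp and Matn4 (at most 0.208 TPM), and WT 8 was the highest in Cnmd. Of the 5 osteoblast markers WT 4 was the highest WT sample in Sp7 (1.63, 0.503 and 0.497 TPM) and Runx2 (19.8, 17.7 and 15.5 TPM), whereas WT 5 was the highest in Ibsp and Dmp1 and WT 8 in Bglap. Of the 3 chondrocyte markers tested, Sox9 had a higher mean in KO (26.1 against 17.6 TPM, limma adjusted p 0.00708), Acan a lower mean (2.73 against 4.22 TPM, limma adjusted p 0.105) and Matn3 a lower mean (0.344 against 1.61 TPM), with no p given since it passed the filter through WT alone. Of the 4 not tested, Matn4 (0.828 against 0.0606 TPM) and Comp (0.379 against 0.180 TPM) lay above WT in the 3 KO samples, and Hapln1 and Cnmd overlapped. The 6 epithelial markers, whose cells also express Col7a1, summed to 40.4 to 45.8 TPM in WT and 49.4 to 66.5 TPM in KO, nearly all of it Krt18. Krt18 and Krt8 were above WT in the 3 KO samples, as Col7a1 was (limma adjusted p 0.0741 and 0.0446), whereas Krt5, Krt14 and Cdh1 were at most 0.135 TPM and Epcam at most 0.612 TPM. The 6 endothelial markers summed to 2.28 to 5.57 TPM in WT and 3.13 to 4.70 TPM in KO. Kdr was above WT in the 3 KO samples (1.72 to 2.10 against 0.745 to 1.52 TPM, limma adjusted p 0.0768). Its adjusted p was 0.0306 by limma under median-of-ratios scaling and 0.00526 by voom. Emcn reached 3.70 TPM in WT 4, Cdh5 was at most 0.638 TPM, and Pecam1 and Tie1 were at most 0.162 TPM. The part of other cell types in the collagen values was not tested.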

How the data were processed

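RNA was sequenced from 6 MEF samples on an Illumina NovaSeq instrument. The study's methods name STAR, the genome build mm10 and DESeq2, whereas the submitters' processing notes list Bowtie 0.12.2 with mm10, and the counting program is not given in the sources used here. The authors deposited TPM values per gene, each column summing to 1000000. The table also holds columns of the authors' own comparison, a log2 fold change and an adjusted p-value that the authors deposited, which were not used. Per the labels the medium held 10% serum, and 2 μg RNA entered each library.

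TPM times the merged exon length of GENCODE M21 was a whole multiple of 1 read for 100.0% of values at a tolerance of 0.05. This gave the reads per sample, which limit the precision of low genes and cover counting error only. The groups were compared by limma (version 3.58.1, R 4.3.3) after adding 1 TPM and taking log2. A variance trend and no covariate were used, among 14799 genes with a group mean of at least 1 TPM. P-values were adjusted by Benjamini-Hochberg over these genes. Labels give no batch, and no label links samples across groups, so p-values rest on the spread between these samples. The limma method moderates the spread of each gene by that of the other genes fitted, so p-values also depend on which genes are fitted.

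The collagen classes, the list of biosynthesis genes, the marker lists, the filter and the thresholds were chosen with earlier results of these data known. Genes named are Kansl1, the highest 3 of each class and those next to the 1 TPM limit. The largest fold changes and the highest gene of each role were also named. Other collagen genes, Itga2 and Lum were added after their values were seen. The fit was tested on simulated data. Alternatives were no filter, a mean of at least 10 TPM, a pseudocount of 0.1, median-of-ratios scaling, removal of Gm23935, no variance trend, other thresholds, voom on recovered reads and leaving out samples. Figures were drawn with matplotlib 3.10.9 in Python 3.11.15.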

Additional observations from a re-analysis of the deposited data

How the results depend on the processing

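The number of genes called among all tested was 1579. It was 341 with no filter on low values, 3147 at an adjusted p below 0.05, 705 at a log2 fold change beyond 1, 2475 by voom on recovered reads and 758 to 1081 when 1 sample was left out. The count of collagen genes called higher was 0, and it was 2 where a gene needed a mean of 10 TPM (Col7a1 and Col18a1, where 3.73% of 7747 tested genes were called higher), 4 at an adjusted p below 0.05, 1 by voom, 3 without WT 4 and KO 3, and 0 to 0 when 1 sample was left out. The count called lower was 0 in each alternative run. The median log2 fold change of the collagen genes moved by less than the replicate SD in each alternative, from -0.08 to 0.31 when 1 sample was left out. It was 0.16 under median-of-ratios scaling and 0.19 by voom, beside 0.01 and 0.01 over all tested genes.

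Signs of small fold changes turned. Under median-of-ratios scaling the log2 fold change was 0.021 for Col4a5, 0.015 for Col1a2, 0.066 for Col5a1, 0.040 for Col16a1, 0.086 for Col6a2, 0.012 for Lox and 0.056 for Serpinh1; by voom it was 0.018, 0.015, 0.067, 0.044, 0.093, 0.012 and 0.057 for the same genes. With Gm23935 removed it was 0.015 for Col6a2. Without WT 4 and KO 3, chosen after seeing the data, it was -0.027 for Col4a1, 0.030 for Col4a5, 0.033 for Col16a1 and 0.083 for Col6a2. Leaving out 1 sample gave ranges across 0 of -0.17 to 0.24 for Col15a1, -0.20 to 0.11 for Col16a1, -0.081 to 0.38 for Col1a1, -0.33 to 0.12 for Col1a2, -0.13 to 0.72 for Col2a1, -0.15 to 0.50 for Col3a1, -0.055 to 0.095 for Col4a1 and -0.12 to 0.017 for Col4a5. It also gave -0.077 to 0.23 for Col4a6, -0.20 to 0.13 for Col5a1, -0.29 to 0.41 for Col5a3, -0.12 to 0.38 for Col6a1, -0.26 to 0.34 for Col6a2, -0.19 to 0.45 for Col6a3, -0.0072 to 0.24 for Col8a1, -0.14 to 0.0067 for Lox and -0.13 to 0.076 for Serpinh1. The cause was not tested. Median-of-ratios scaling moved the median of all tested genes from -0.07 to 0.01. A mean of at least 10 TPM gives no value for 10 collagen genes. No paired analysis was possible because WT 4, 5 and 8 have no replicate number in common with KO 3, 7 and 10.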
